A study of Homo sapiens with 6 samples.

Results

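The nuclear-encoded respiratory chain subunits were taken as the entries whose gene symbol matches the naming of the NADH dehydrogenase subunits (NDUFA, NDUFB, NDUFC, NDUFS and NDUFV), the succinate dehydrogenase subunits (SDHA to SDHD), the cytochrome bc1 subunits (UQCR), the cytochrome c oxidase subunits (COX5 to COX8 and their isoforms) or ATP synthase (ATP5). The rule uses names only and no measured value. It gave 84 of the 25737 entries in the tables, 36 in complex I, 4 in complex II, 9 in complex III, 16 in complex IV and 19 in complex V. The pseudogene entries ATP5EP2 and UQCRBP1 were left out. NDUFA4 and COX7A2L were placed with complex IV, with which their proteins associate, and ATP5S and ATP5SL carry the family name without being structural subunits.

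The study exposed human respiratory epithelial cell lines to transforming growth factor beta 1 (TGF-β1) as a model of pulmonary fibrosis, and measured mRNA with a 3′-end method (QuantSeq), in which reads come from the end of each transcript. A549 is a line of lung carcinoma epithelial cells and BEAS-2B a line of bronchial epithelial cells, both given as WT. TGF-β1 was added 24 h after seeding at 1 or 5 ng/mL, in RPMI1640 with 1% FBS, and left for 48 h. The control cells of each line are labelled only as having no treatment, and their medium over those 48 h is not given in the labels. There was 1 library for each of the 6 conditions, so no spread between replicates could be measured, no p-value is given, and the intervals printed here cover counting error only.

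Mitochondria make most of the ATP of a resting cell by passing electrons from NADH and succinate along a chain of protein complexes in the inner membrane. Complexes I, III and IV pump protons, complex II feeds in electrons from succinate as part of the tricarboxylic acid (TCA) cycle without pumping, and complex V, the ATP synthase, lets the protons flow back to make ATP. Most subunits are encoded in the nucleus and a few in mitochondrial DNA. Of 13 mitochondrially encoded subunit genes looked up by symbol, 0 had an entry in the counts, so they could not be analysed here.

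Levels are given as normalized counts, the read count divided by the TMM-scaled library size and brought to the mean library size. The number 1 is added to this count and log2 is taken to give the ND value, and the log2 FC is the ND value of a treated library less that of the control of its line. A subunit was called upregulated or downregulated when its FC was at least 2 and its ND value was at least 7 (a normalized count of 127) in at least 1 of the 2 libraries. This rule is a size limit and not a test. Ranges in parentheses after a log2 FC are exact 95% Clopper-Pearson intervals of the ratio of counts. In RNA from whole cultures, a lower level in every cell and fewer cells that carry the transcript cannot be told apart.

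The libraries held between 4120624 and 7841350 counts, the deepest being A549 at 1 ng/mL. A count of 0 allowed a level of up to 0.383 to 0.728 CPM (3 counts of the library total). Keratins of epithelial cells were present in both lines, with 14592 counts of KRT18 in untreated A549 and 1418 in untreated BEAS-2B cells. The defining epithelial genes EPCAM and CDH1 had 49 and 640 counts in untreated A549 cells, and 0 and 2 in untreated BEAS-2B cells. In A549 cells these markers changed with treatment, CDH1 to 30 and 8 counts, EPCAM to 7 and 2 and KRT8 from 6112 to 2785 and 1792. The summed normalized counts of 5 epithelial markers were 24833, 11182 and 10461 in A549 and 2050, 1042 and 1262 in BEAS-2B cells over the 3 doses, and their part in the changes of the subunits was not tested. The leukocyte genes PTPRC and CD3E and the endothelial genes PECAM1, VWF and CDH5 had at most 4 counts in any library, the monocyte gene CD14 at most 57 (57, 24 and 14 in A549 and 24, 3 and 2 in BEAS-2B cells) and the fibroblast gene DCN at most 53. The TGF-β1 response gene SMAD7 had 24 counts in untreated A549 cells and 132 at 5 ng/mL, and 15 and 118 in BEAS-2B cells.

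All 84 subunits together held 1.85% of the counts in untreated A549 cells, 1.43% at 1 ng/mL and 1.29% at 5 ng/mL. In BEAS-2B cells the shares were 1.41%, 1.36% and 1.16%. After scaling, the summed log2 FC was -0.32 in A549 (interval -0.33 to -0.30) and -0.15 in BEAS-2B cells (-0.17 to -0.13) at 5 ng/mL. At 1 ng/mL it was -0.20 in A549 (-0.22 to -0.19) and 0.07 in BEAS-2B cells (0.06 to 0.09). The share of the unscaled counts was thus lower at each higher dose in both lines, while the scaled sum in BEAS-2B cells was above untreated at 1 ng/mL. The scaled sum over all entries changed by 0.17 at 1 ng/mL and 0.21 at 5 ng/mL in A549 cells. In BEAS-2B cells it changed by 0.13 at both doses. The sum of the subunits lay below that of all entries at each dose in both lines.

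At 5 ng/mL in A549 cells, 20 subunits were downregulated and 1 was upregulated among the 76 that passed the ND minimum. Over all 7115 entries that passed it, 33.3% were called, 17.1% as lower and 16.1% as higher, so the share of the subunits called (27.6%) was below that of all entries, while their share called as lower (26.3%) was above it. Their median log2 FC was -0.28, against 0.11 over all entries. At 1 ng/mL, 11 were downregulated and 1 upregulated, with 23.5% of all entries called (12.6% lower and 10.9% higher). The median of the subunits was -0.12 at that dose and that of all entries 0.09.

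Fewer subunits passed the rule in BEAS-2B cells. At 5 ng/mL, 9 of 74 subunits were downregulated and 0 upregulated, while 19.0% of all entries were called, 11.6% as lower and 7.33% as higher. The median of the subunits was -0.15, against 0.03 over all entries. At 1 ng/mL, 4 of 73 were downregulated and 0 upregulated, and 14.8% of all entries were called (9.13% lower and 5.66% higher). The median at that dose was 0.04 for the subunits and 0.01 for all entries, and its sign turned with the scaling, to -0.08 with total counts.

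With a lower limit of 1.5-fold, the calls were less one-sided in A549 cells. At 5 ng/mL, 29 subunits were lower and 5 higher, and 56.1% of all entries passed this limit (26.2% lower and 29.9% higher). At 1 ng/mL, 21 were lower and 5 higher, against 45.7% of all entries (21.6% lower and 24.1% higher). In BEAS-2B cells the numbers were 22 lower and 4 higher at 5 ng/mL, against 41.4% of all entries (22.2% and 19.2%), and 12 lower and 6 higher at 1 ng/mL, against 34.6% (19.4% and 15.2%).

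A subunit that passed the minimum only in the untreated library could hardly be called in any direction but down. In A549 cells at 5 ng/mL, 7 of the subunits that passed the minimum did so only in the untreated library, and 6 of them are among the 20 downregulated. Among the 68 subunits at or above the minimum in both libraries, 14 were downregulated and 1 upregulated, with a median of -0.15 against 0.16 for all such entries. In BEAS-2B cells 67 subunits were at the minimum in both libraries, of which 5 were downregulated.

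**Figure D1:**
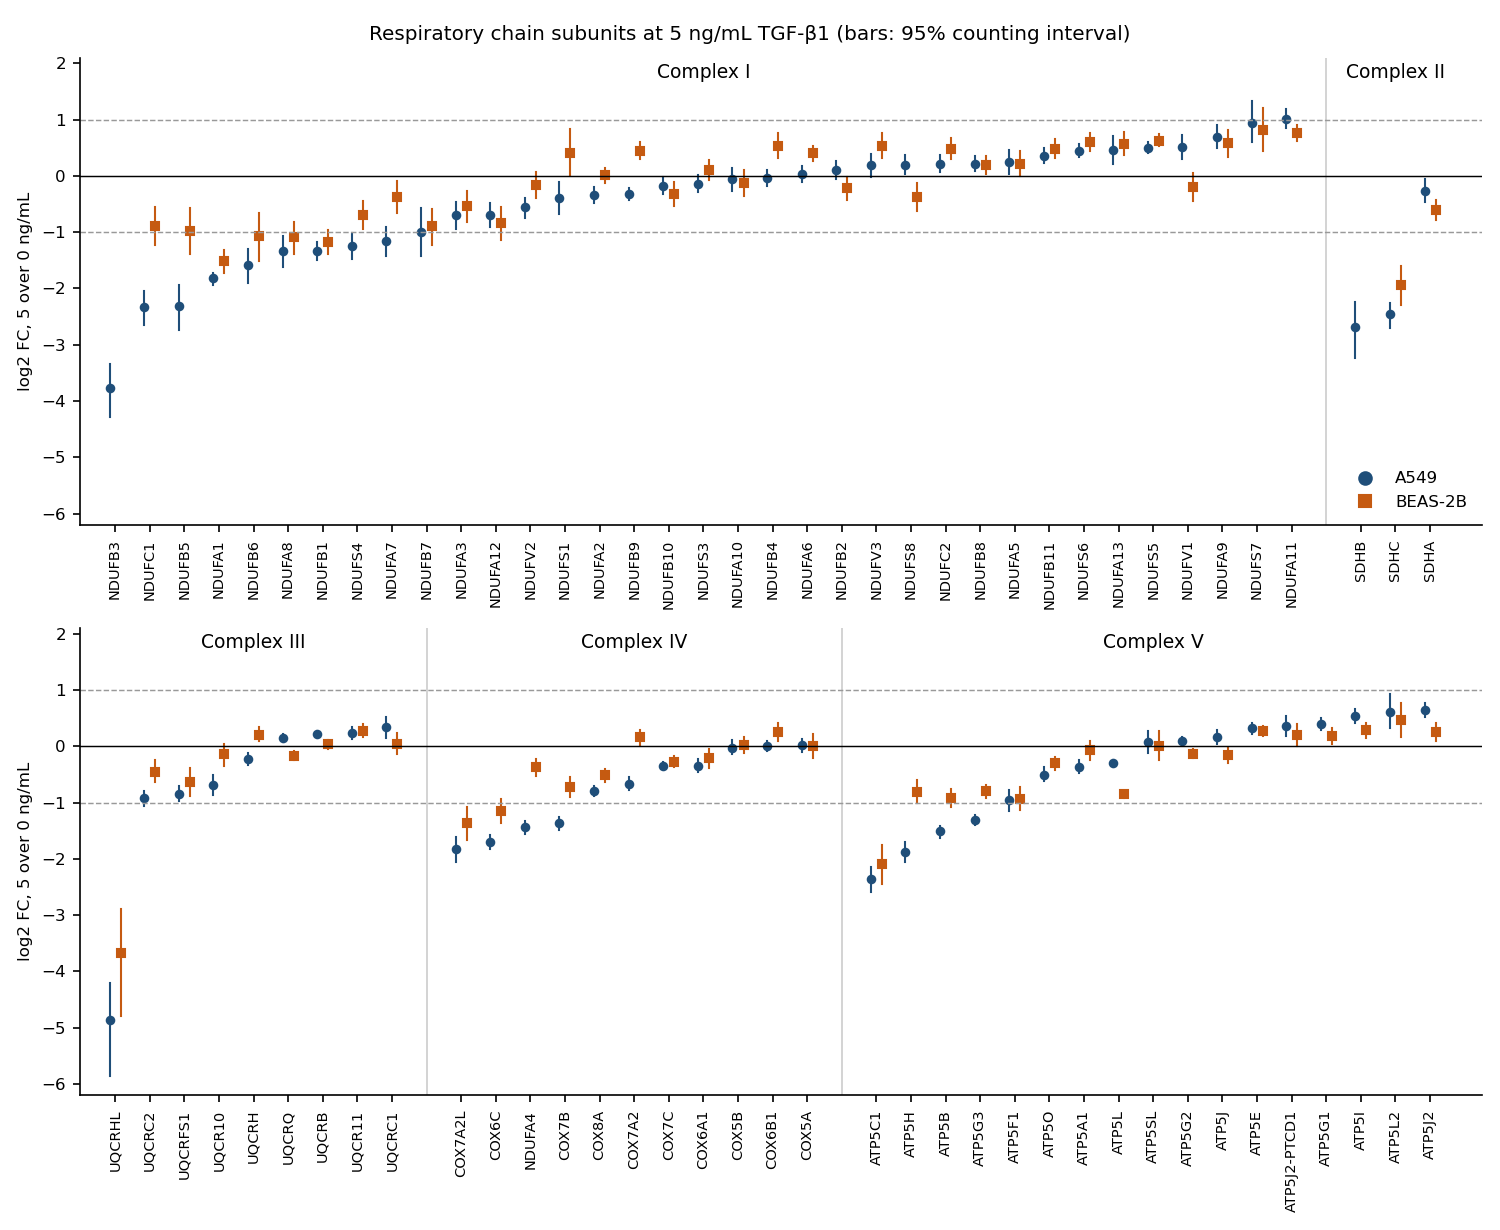
The log2 FC at 5 ng/mL TGF-β1 of subunits that passed the ND minimum in that line, grouped by complex and ordered by the A549 value, with A549 as circles and BEAS-2B as squares, each from 1 treated and 1 control library. Bars are 95% counting intervals and dashed lines mark an FC of 2. Complex I spans from -3.77 (NDUFB3) to 1.02 (NDUFA11) in A549 cells, UQCRHL is lowest in both lines, and a group of subunits in complexes III, IV and V lies near 0.

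Of the 5 complexes, complex II had the lowest summed log2 FC in both lines. It is the smallest and the only one that also belongs to the TCA cycle. SDHA carries the flavin that oxidizes succinate, SDHB carries the iron-sulfur clusters that pass on the electrons, and SDHC and SDHD anchor the enzyme in the membrane. SDHC had normalized counts of 1010 in untreated A549 cells, 257 at 1 ng/mL and 182 at 5 ng/mL, and 425, 167 and 111 in BEAS-2B cells. Its log2 FC at 5 ng/mL was -2.46 (-2.70 to -2.25) in A549 and -1.93 (-2.29 to -1.60) in BEAS-2B cells, a level 5.54-fold and 3.83-fold lower. Most of the drop was already present at 1 ng/mL in both lines.

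SDHB had normalized counts of 251, 52.2 and 38.1 over the 3 doses in A549 cells, and 95.9, 34.9 and 34.0 in BEAS-2B cells. It was downregulated in A549 cells, with a log2 FC of -2.69 (-3.23 to -2.24) at 5 ng/mL. SDHB passed the ND minimum there only in the untreated library, so this call could hardly go in another direction. In BEAS-2B cells it stayed under the ND minimum in every library, so it was not called, although its log2 FC was -1.47 (-2.18 to -0.86). SDHD had few reads, with 67, 4 and 4 raw counts in A549 cells and 16, 4 and 2 in BEAS-2B cells, and passed the minimum in neither line. Its log2 FC at 5 ng/mL was -4.09 (-6.34 to -3.0) in A549 and -2.42 (-5.99 to -0.74) in BEAS-2B cells.

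SDHA behaved differently from its partners. It had normalized counts of 433, 359 and 361 in A549 cells, and 753, 600 and 498 in BEAS-2B cells. Its log2 FC at 5 ng/mL was -0.26 (-0.47 to -0.06) and -0.60 (-0.78 to -0.42), which did not reach the FC limit in either line. In A549 cells the intervals of SDHB, SDHC and SDHD did not meet that of SDHA, and in BEAS-2B cells those of SDHB and SDHC did not, while that of SDHD did. The sum over complex II changed by -1.60 (-1.73 to -1.47) in A549 and by -1.0 (-1.15 to -0.85) in BEAS-2B cells.

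**Figure D2:**
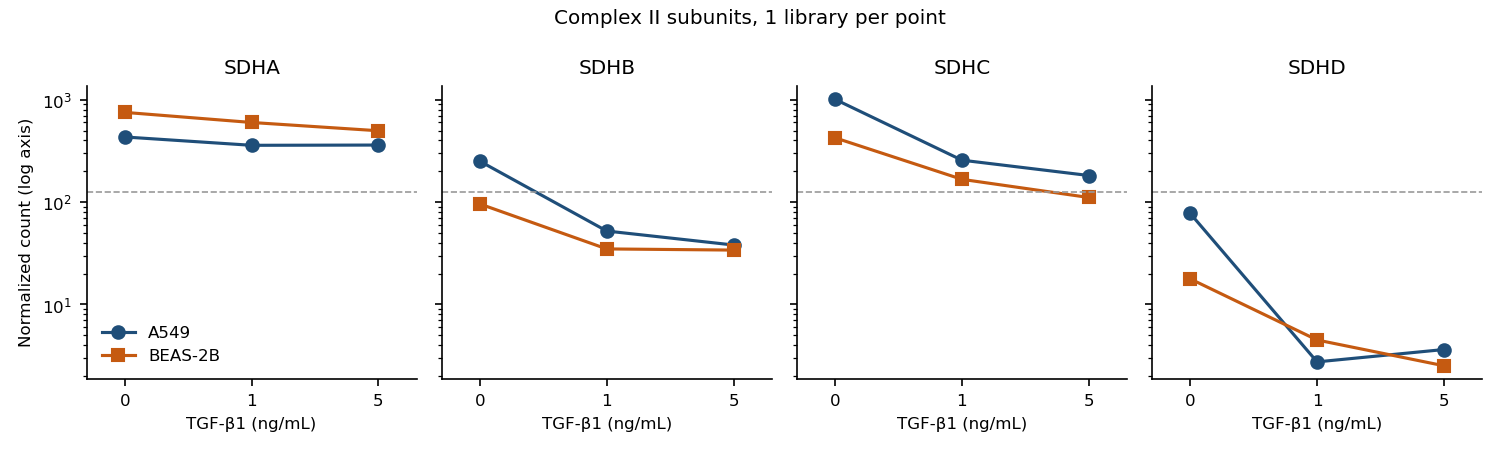
Normalized counts of SDHA, SDHB, SDHC and SDHD (log axis) against the TGF-β1 dose in ng/mL, equally spaced, for A549 (circles) and BEAS-2B (squares), with 1 library per point and no error bars. The dashed line is the ND minimum at 127. SDHB, SDHC and SDHD drop between 0 and 1 ng/mL in both lines while SDHA moves from 433 to 361 in A549 and from 753 to 498 in BEAS-2B cells at 5 ng/mL.

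Promoters of respiratory chain genes are known for sites of the nuclear respiratory factor NRF1 and of ETS-family factors such as GABP (also called NRF2). RefSeq promoter windows of build GRCh38.p14, which run from 250 bases before the transcript start to 50 after it, were found for 66 of the 84 subunits. They were searched on both strands for an NRF1-type motif, the letters GCGCA and GCGC with any 1 base between them, and for an ETS-type motif, the letters CCGGAAG. In no window of a subunit did matches of the 2 motifs overlap. The NRF1-type letters were in 20.3% of the 79 windows of the subunits and in 5.78% of all 35116 windows. The ETS-type letters were in 25.3% and 10.3%. The windows below show these letters in capitals, 5′ to 3′ on the strand of the gene, for complex II, whose genes moved apart, and for NDUFA8 and ATP5C1, the 2 subunits downregulated in both lines that carry NRF1-type letters (ATP5C1 is listed by RefSeq as ATP5F1C).
SDHA, chr5:218291-218320, plus strand: ccggtgtggtGCGCAGGCGCagtctgcgca
SDHB, chr1:17054142-17054171, minus strand: cacccgggaaaCCGGAAGccgcctcccact
SDHD, chr11:112086753-112086782, plus strand: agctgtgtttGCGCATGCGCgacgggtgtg
SDHD, chr11:112086785-112086814, plus strand: ccgcctctcgaCTTCCGGttcacccagcat
NDUFA8, chr9:122159764-122159793, minus strand: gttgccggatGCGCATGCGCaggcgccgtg
ATP5C1, chr10:7788145-7788174, plus strand: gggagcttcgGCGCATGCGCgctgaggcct
The window of SDHA holds 4 copies of the NRF1-type letters, each 49 bases from the next, of which the copy nearest to the start is shown. In NDUFA8 a further copy overlaps the one in capitals and runs on into the lower-case letters after it. That of SDHD holds both kinds, the ETS-type letters on the opposite strand, and that of SDHB holds the ETS-type letters only. SDHC has no window in the table. Among the subunits with a window, the NRF1-type letters were found for 2 of 13 downregulated at 5 ng/mL in A549 cells and for 11 of 47 that passed the minimum without a call. In BEAS-2B cells the numbers were 2 of 6 and 12 of 53. For the ETS-type letters they were 3 of 13 and 15 of 47 in A549 cells, and 1 of 6 and 16 of 53 in BEAS-2B cells. NDUFA1, downregulated in both lines, has ETS-type letters in a window that is not shown. A match of letters is a description of the window and not evidence of binding.

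Complex I, which takes electrons from NADH, has a catalytic core that holds the flavin and the iron-sulfur clusters, and many accessory subunits around it that serve its assembly and stability. The 7 core subunits in the set had 0 calls at 5 ng/mL in either line, where 33.3% (A549) and 19.0% (BEAS-2B) of all entries were called, with log2 FCs from -0.56 to 0.95 in A549 and from -0.37 to 0.81 in BEAS-2B cells. At 1 ng/mL NDUFS7, which holds the last iron-sulfur cluster before ubiquinone, was the single upregulated subunit in A549 cells, from a normalized count of 104 to 228 and then 202 at 5 ng/mL. Its log2 FC was 1.12 (0.79 to 1.48) at 1 ng/mL and 0.95 (0.60 to 1.33) at 5 ng/mL, and its call was lost with total counts, with the GC trend removed or with an ND minimum of 8. Its value at 5 ng/mL passed the FC limit with cyclic loess (1.06) and was 0.18 with the GC trend removed. In BEAS-2B cells it went from 105 to 176 and 185, a log2 FC of 0.81 (0.44 to 1.21) at 5 ng/mL.

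Accessory subunits carried all the downregulation calls of complex I at 5 ng/mL, 9 of 29 in A549 (31.0%, against 17.1% of all entries) and 4 of 28 in BEAS-2B cells (14.3%, against 11.6%). NDUFB3, NDUFB5, NDUFC1 and NDUFB6, 4 of the 9 in A549 cells, passed the ND minimum only in the untreated library, as did NDUFB6 in BEAS-2B cells. NDUFB3, of the distal membrane arm, had normalized counts of 546, 51.5 and 39.0 in A549 cells, a log2 FC of -3.77 (-4.29 to -3.35) at 5 ng/mL or a level 14-fold lower. In BEAS-2B cells it was under the minimum in all libraries, at 89.2, 34.9 and 15.1, with a log2 FC of -2.49 (-3.57 to -1.68) that was not called. NDUFC1 had 529, 221 and 104 in A549 cells and 267, 136 and 144 in BEAS-2B cells, so that it was downregulated in A549 (-2.33, -2.65 to -2.05) and short of the limit in BEAS-2B cells (-0.89, -1.23 to -0.56). NDUFB5 showed the same contrast, at -2.31 (-2.73 to -1.94) and -0.97 (-1.39 to -0.57).

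The 4 accessory subunits downregulated in BEAS-2B cells at 5 ng/mL were NDUFA1, NDUFB1, NDUFA8 and NDUFB6, and each was also downregulated in A549 cells. NDUFA1, a small membrane subunit encoded on the X chromosome, had normalized counts of 3239, 1572 and 917 in A549 cells and 907, 711 and 317 in BEAS-2B cells. Its treated levels lay below the untreated one at both doses in both lines. Its log2 FC was -1.82 (-1.93 to -1.72) and -1.51 (-1.72 to -1.31). NDUFB1 was at -1.33 in A549 and -1.17 in BEAS-2B cells, NDUFA8 at -1.33 and -1.09, and NDUFB6 at -1.59 and -1.06. The call of NDUFB6 in BEAS-2B cells was lost with upper quartile scaling, with cyclic loess and with the GC trend removed.

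NDUFS4, which is needed for a stable NADH-oxidizing arm and is a known Leigh syndrome gene, and NDUFA7 were downregulated in A549 cells only by the FC rule, at -1.25 (-1.48 to -1.02) and -1.16 (-1.43 to -0.90), with -0.69 and -0.37 in BEAS-2B cells. The call of NDUFS4 was lost with the GC trend removed. NDUFB7 was called at 1 ng/mL in BEAS-2B cells (-1.34, -1.70 to -1.01) but not at 5 ng/mL, where it was at -0.89. On the other side, NDUFA11 was the single upregulated subunit at 5 ng/mL in A549 cells. It had normalized counts of 482, 891 and 979 in A549 cells and 802, 1068 and 1360 in BEAS-2B cells, with a log2 FC of 1.02 (0.86 to 1.19) and 0.76 (0.62 to 0.90). Its call was lost with total counts, with cyclic loess and with the GC trend removed, under which its log2 FC in A549 cells was 0.82, 0.82 and 0.51. The sum over complex I changed by -0.19 (-0.21 to -0.16) in A549 and by 0.11 (0.08 to 0.14) in BEAS-2B cells, where its share of total counts, which involves no scaling factor, went from 0.383% to 0.378%.

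Complex III passes electrons from ubiquinol to cytochrome c. Of its 9 entries in the set, 1 was downregulated by the rule in A549 cells at 5 ng/mL. Lower by at least 1.5-fold were 4 (44.4%, against 26.2% of all entries), UQCRHL, UQCRC2, UQCRFS1 and the small subunit UQCR10 (-0.69, -0.87 to -0.51). In BEAS-2B cells UQCR10 was at -0.14 (-0.34 to 0.05). The subunit CYC1, which the naming rule does not take in, was at -0.96 (-1.12 to -0.81) in A549 and -0.10 (-0.31 to 0.11) in BEAS-2B cells. The small subunit UQCRB had normalized counts of 4047, 5154 and 4701 in A549 cells and 3609, 4558 and 3699 in BEAS-2B cells, a log2 FC of 0.22 and 0.04 at 5 ng/mL. The left-out pseudogene entry UQCRBP1 had 1303, 1763 and 1032 raw counts in A549 cells and 957, 1094 and 670 in BEAS-2B cells. Whether UQCRB and UQCRBP1 share reads was not tested. UQCRQ was at 0.15 and -0.17, and UQCR11 at 0.24 and 0.28. The core protein UQCRC1 was at 0.34 and 0.05, while the core protein UQCRC2 was at -0.92 (-1.06 to -0.79) and -0.45. The A549 values of UQCRC1 and UQCR11 turned to -0.14 and -0.13 with the GC trend removed, and that of UQCR11 to -0.04 with cyclic loess. UQCRC2 passed the FC limit in A549 cells with total counts and with cyclic loess, at -1.13 in both, and was at -0.61 with the GC trend removed. UQCRFS1, the Rieske iron-sulfur protein that carries out the first electron transfer, had 1361, 952 and 761 in A549 cells and 393, 297 and 253 in BEAS-2B cells. Its treated levels were below the untreated one in both lines without reaching the FC limit, at -0.84 (-0.97 to -0.71) and -0.63 (-0.89 to -0.38). In A549 cells UQCRFS1 passed it with total counts (-1.04) and cyclic loess (-1.05), and was at -0.44 with the GC trend removed.

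The exception was UQCRHL, an intronless paralogue of the hinge subunit gene UQCRH. UQCRHL had 344, 52 and 14 raw counts in A549 cells and 169, 25 and 11 in BEAS-2B cells. Its log2 FC at 5 ng/mL was -4.87 (-5.86 to -4.21) in A549 and -3.67 (-4.80 to -2.89) in BEAS-2B cells, the lowest of all subunits in both. UQCRH had 1400, 1832 and 1532 raw counts in A549 and 1045, 1402 and 1071 in BEAS-2B cells, at -0.22 (-0.33 to -0.12) and 0.21 (0.09 to 0.34), the first of which was 0.03 with the GC trend removed. Reads of these genes may be hard to tell apart. Of the 461 stretches of 40 bases in the last 500 bases of the UQCRHL transcript, 201 (43.6%) were also found in UQCRH, so the counts of both entries are uncertain. Without UQCRHL, complex III had 0 calls in any of the 4 comparisons with untreated cells.

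Complex IV reduces oxygen to water. Its catalytic subunits are encoded in mitochondrial DNA, and the nuclear subunits surround them. COX7A2L, a supercomplex factor that helps join complexes III and IV, had normalized counts of 743, 411 and 209 in A549 cells and 424, 225 and 165 in BEAS-2B cells. It was downregulated in both lines at 5 ng/mL, at -1.83 (-2.06 to -1.61) and -1.36 (-1.66 to -1.07). COX6C had 2096, 651 and 649 in A549 cells and 725, 523 and 326 in BEAS-2B cells, at -1.69 (-1.82 to -1.57) and -1.15 (-1.37 to -0.94). In A549 cells the whole drop of COX6C was reached at 1 ng/mL.

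NDUFA4 and COX7B were downregulated in A549 but not in BEAS-2B cells. NDUFA4, first assigned to complex I and now counted as a complex IV subunit, had 2193, 1529 and 811 in A549 cells and 993, 963 and 768 in BEAS-2B cells, at -1.43 (-1.55 to -1.32) and -0.37 (-0.52 to -0.22). COX7B was at -1.37 (-1.49 to -1.26) and -0.72 (-0.90 to -0.55). NDUFA4L2, a paralogue of NDUFA4 known for its induction in low oxygen and not among the 84, went from 24 to 90 and 84 raw counts in A549 cells and from 36 to 106 and 87 in BEAS-2B cells. It stayed below the ND minimum, so its log2 FC of 1.42 (0.79 to 2.17) and 1.43 (0.87 to 2.05) at 5 ng/mL was not called.

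Other complex IV subunits lay nearer to 0. COX5B had 1088, 1079 and 1076 in A549 cells and 1007, 1043 and 1020 in BEAS-2B cells, a log2 FC of -0.02 (-0.14 to 0.11) and 0.02 (-0.12 to 0.16). COX5A was at 0.02 and 0.01, and COX6B1 at 0.01 and 0.26. COX4I1, the largest nuclear subunit, which the naming rule does not take in, was at 0.82 (0.75 to 0.88) and 0.49 (0.38 to 0.61). The sum over the complex IV entries of the set, without COX4I1, changed by -0.63 (-0.67 to -0.60) in A549 and by -0.29 (-0.34 to -0.25) in BEAS-2B cells. This normalized sum went from 20928 to 13487 in A549 and from 11021 to 9008 in BEAS-2B cells at 5 ng/mL. COX4I1 alone went from 3172 to 5583 and from 1236 to 1742, so taking it in would make both drops smaller.

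The tissue-restricted isoforms of complex IV were nearly silent. COX6A2 and COX7B2 had 0 counts in every library, COX8C had 1 count in all, and COX7A1 had 6 counts at 1 ng/mL and 1 at 5 ng/mL in A549 cells and 0 elsewhere. COX6B2, the testis isoform, had between 9 and 28 counts. These 5, SDHD, the F1 subunit ATP5D and ATP5S are the 8 members that passed the ND minimum in no comparison with the untreated A549 library, and NDUFB3 and SDHB also missed it in BEAS-2B cells. NDUFS1 missed it in BEAS-2B cells at 1 ng/mL.

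**Figure D3:**
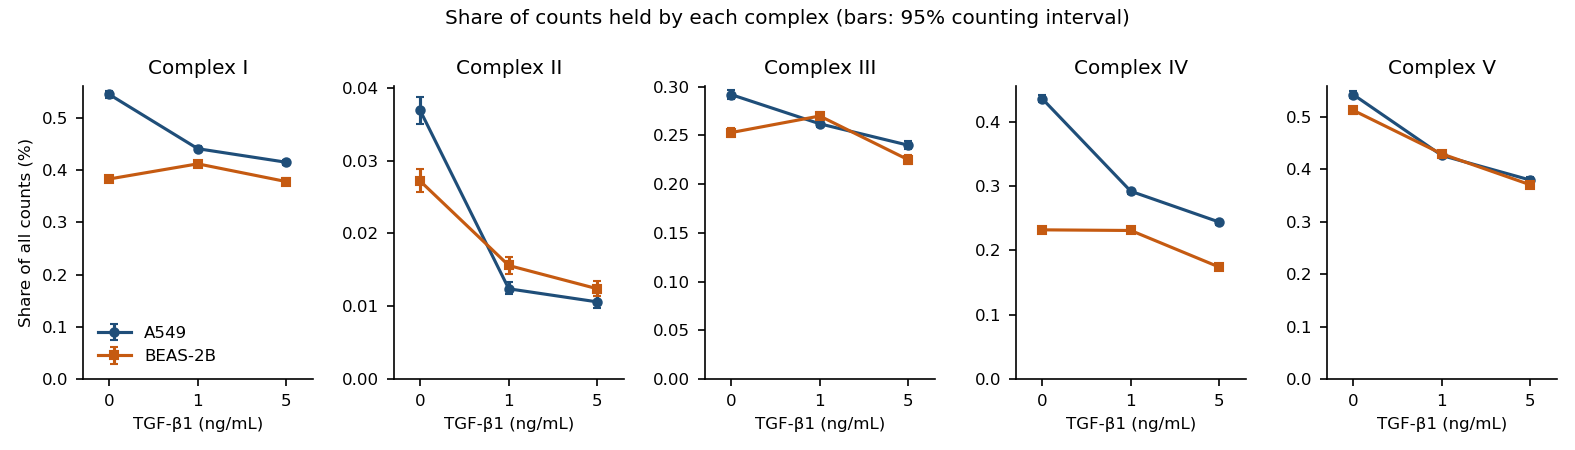
Share of all counts, in percent, held by the subunits of each complex against the TGF-β1 dose in ng/mL, for A549 (circles) and BEAS-2B (squares), with 1 library per point and 95% counting intervals as bars. Each panel has its own vertical axis from 0. Complex II goes from 0.0369% to 0.0106% in A549 and from 0.0272% to 0.0124% in BEAS-2B cells, while complex I in BEAS-2B cells is at 0.383%, 0.412% and 0.378%.

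Complex V consists of the F1 head, where ATP is made, the membrane part with its ring of c subunits, and a peripheral stalk that holds the head still. In the F1 part the γ subunit ATP5C1, the shaft that turns inside the head, was downregulated at both doses in both lines. It had normalized counts of 1079, 385 and 210 in A549 cells and 464, 223 and 108 in BEAS-2B cells. Its log2 FC at 5 ng/mL was -2.36 (-2.58 to -2.15) and -2.09 (-2.45 to -1.76). Only SDHC, UQCRHL and ATP5C1 were called in all 4 comparisons with untreated cells, although at 1 ng/mL in BEAS-2B cells ATP5C1 lost its call with upper quartile scaling or thinned libraries and UQCRHL with an ND minimum of 8. UQCRHL passed the ND minimum only in the untreated library in all 4, and SDHC and ATP5C1 did so in BEAS-2B cells at 5 ng/mL, so that these calls could hardly go in another direction.

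The catalytic β subunit ATP5B had 2827, 1574 and 989 in A549 cells and 1141, 887 and 603 in BEAS-2B cells. It was downregulated in A549 (-1.51, -1.62 to -1.41) and below the limit in BEAS-2B cells (-0.92, -1.08 to -0.76). The α subunit ATP5A1, which alternates with β in the head, was at -0.36 (-0.48 to -0.25) and -0.07 (-0.25 to 0.10). The ε subunit ATP5E was at 0.32 and 0.28, with 1356, 3185 and 2159 raw counts in A549 cells and 1841, 2717 and 1977 in BEAS-2B cells. The left-out pseudogene entry ATP5EP2 had 1716, 1904 and 1173 in A549 cells and 1936, 1294 and 1210 in BEAS-2B cells. Whether ATP5E and ATP5EP2 share reads was not tested, so the ATP5E values are uncertain. The δ subunit ATP5D lay below the minimum, at 50, 168 and 42 raw counts in A549 cells and 36, 41 and 17 in BEAS-2B cells.

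The c subunit of the ring is encoded by ATP5G1, ATP5G2 and ATP5G3, which give the same mature protein after their different targeting peptides are removed. ATP5G3 had 3164, 1892 and 1277 in A549 cells and 1831, 1082 and 1053 in BEAS-2B cells, at -1.31 (-1.40 to -1.22) and -0.80 (-0.92 to -0.68). ATP5G2 had 3111, 3138 and 3306 and then 3152, 2713 and 2878, at 0.09 (0.02 to 0.16) and -0.13 (-0.21 to -0.05). ATP5G1 had 1335, 1139 and 1760 and then 922, 980 and 1045, at 0.40 (0.29 to 0.51) and 0.18 (0.04 to 0.32). Only ATP5G3 was lower by the rule, and only in A549 cells. Their transcript ends shared 0 stretches of 40 bases between ATP5G3 and either of the others. The summed c-ring genes changed by -0.26 (-0.31 to -0.21) and -0.25 (-0.31 to -0.19).

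In the peripheral stalk, ATP5H was downregulated in A549 cells at -1.87 (-2.05 to -1.70), with normalized counts of 1240, 366 and 338, and was at -0.81 (-1.01 to -0.60) in BEAS-2B cells. ATP5F1 was just short of the limit in both lines, at -0.96 and -0.93. It passed the limit with total counts in both lines (-1.16 and -1.05) and with cyclic loess in A549 cells (-1.10), where it was at -0.56 with the GC trend removed. ATP5J, at 0.17 and -0.16, and ATP5O, at -0.50 and -0.30, moved less. Of the membrane subunits, ATP5J2 was at 0.65 and 0.25 and ATP5I at 0.54 and 0.29. ATP5L was at -0.30 (-0.37 to -0.24) in A549 and -0.85 (-0.92 to -0.79) in BEAS-2B cells, one of the subunits with the larger change in BEAS-2B. The read-through entry ATP5J2-PTCD1 and the paralogue ATP5L2 were at 0.36 and 0.62 in A549 cells. They may share reads with ATP5J2 and ATP5L, since 16.7% of the stretches of 40 bases at the end of ATP5J2 were also in ATP5J2-PTCD1 and 9.76% of those of ATP5L2 were in ATP5L. In the other direction, 0 of the 461 stretches at the end of ATP5J2-PTCD1 were in ATP5J2. Of those at the end of ATP5L, 0.738% were in ATP5L2. The sum over the complex V entries of the set changed by -0.31 (-0.34 to -0.28) in A549 and by -0.34 (-0.37 to -0.31) in BEAS-2B cells. It takes in ATP5S, ATP5SL and ATP5J2-PTCD1, and leaves out the ATP synthase subunits USMG5 and C14orf2, whose names the rule misses. At 5 ng/mL the normalized count of USMG5 went from 868 to 424 in A549 and from 326 to 244 in BEAS-2B cells. That of C14orf2 went from 1615 to 2912 and from 861 to 1353.

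**Figure D4:**
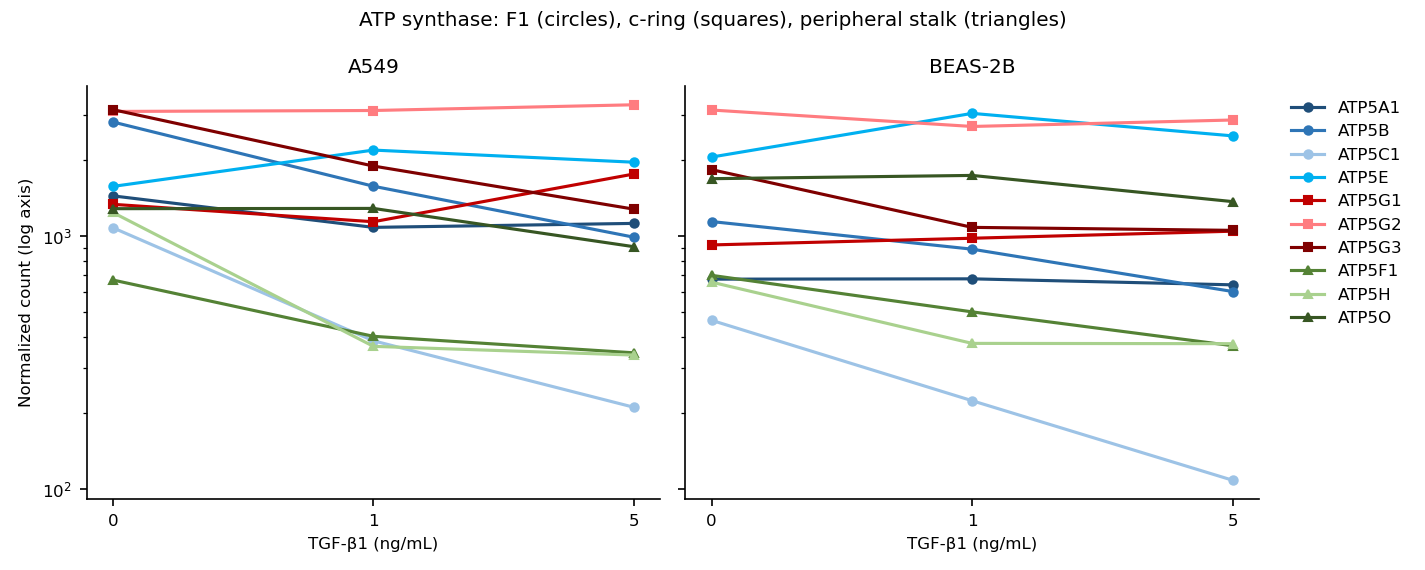
Normalized counts (log axis) of 10 ATP synthase genes against the TGF-β1 dose in ng/mL, equally spaced, in A549 (left) and BEAS-2B cells (right), with 1 library per point and no error bars. Circles are F1 subunits, squares the c-ring genes and triangles the peripheral stalk. ATP5C1 goes from 1079 to 210 in A549 and from 464 to 108 in BEAS-2B cells, and ATP5G3 from 3164 to 1277 in A549 cells, while ATP5G2 stays between 3111 and 3306.

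Few subunits passed the FC rule between 1 and 5 ng/mL. In A549 cells, 1 of 71 was lower, NDUFC1 (-1.08), and 0 were higher, against 3.40% of all entries called (1.79% lower and 1.61% higher). In BEAS-2B cells 2 of 72 were lower, NDUFA1 (-1.16) and ATP5C1 (-1.03), and 0 were higher, against 0.904% of all entries (0.412% lower and 0.492% higher). The median over the subunits was -0.15 in A549 and -0.23 in BEAS-2B cells, and that over all entries 0.01 in both. In BEAS-2B cells all 11 complex IV subunits that passed the minimum were lower at 5 than at 1 ng/mL, 10 of them beyond the counting interval, from -0.03 (COX5B) to -0.85 (COX7B). Over all 6306 entries, 3081 were lower and 1407 of them beyond the interval. At 1 ng/mL, 7 of these 11 were above untreated BEAS-2B cells.

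The log2 FCs of the lines were compared subunit by subunit. Of the 74 that passed the minimum in both at 5 ng/mL, 60 (81.1%) had the same sign, with a Pearson correlation of the log2 FCs of 0.912 and a Spearman correlation of 0.854. Over all 5832 entries 73.4% had the same sign, with correlations of 0.681 and 0.623. At 1 ng/mL the values were 68.5%, 0.758 and 0.639 for 73 subunits, and 66.6%, 0.546 and 0.473 for 5747 entries. The points share their libraries in each line, so they are not independent and no p-value is given. All 9 subunits downregulated in BEAS-2B cells were among the 20 downregulated in A549 cells. Over all entries, 379 were downregulated in both lines, of 783 in BEAS-2B and 1220 in A549 cells. The change was larger in A549 cells for 52 of the 74 subunits and for 3643 of the 5832 entries. Of the 74, 8 had opposite signs in the lines beyond both counting intervals, and in none of them did both values reach 1.5-fold. How many of the 5832 entries did so was not counted, so these numbers have no background.

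**Figure D5:**
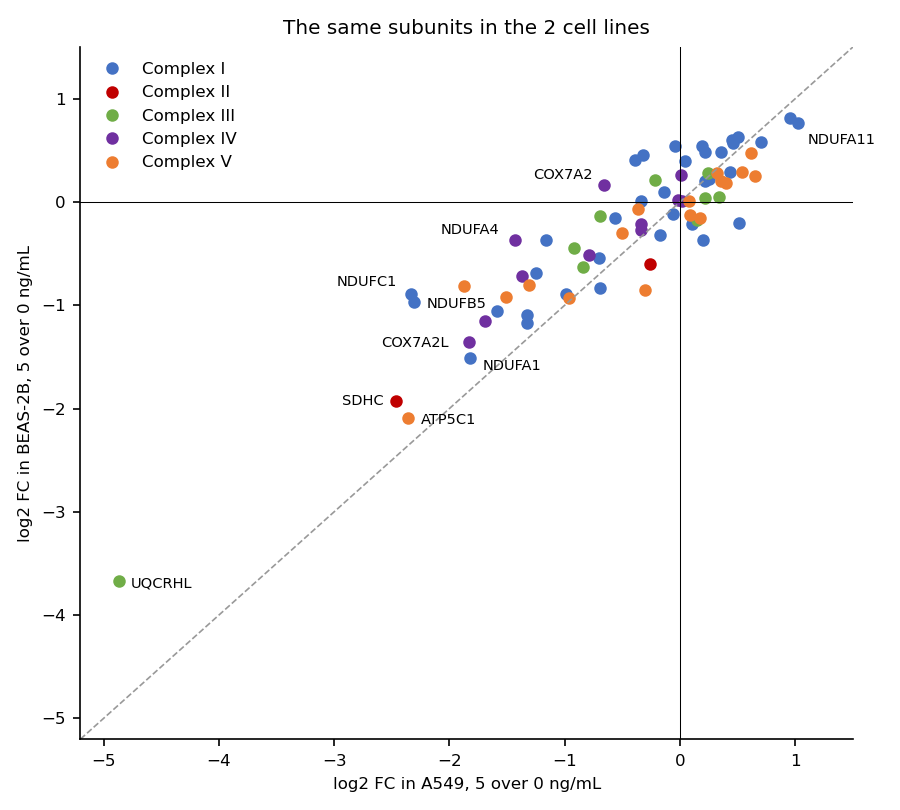
The log2 FC at 5 ng/mL in A549 cells (horizontal) and in BEAS-2B cells (vertical) for the 74 subunits that passed the ND minimum in both, coloured by complex, with the line of equal change dashed. Each value compares 1 treated and 1 control library. Below 0, most points lie above the dashed line, and UQCRHL, SDHC and ATP5C1 are lowest in both lines.

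The lines also differed before treatment. Of 75 subunits that passed the minimum, 18 were higher by the FC rule in untreated A549 than in untreated BEAS-2B cells and 1, NDUFB7 (-1.02), was lower, while 37.0% of all entries were called, 18.1% as higher and 18.9% as lower. The median was 0.49 for the subunits and -0.05 for all entries. In complex IV all 11 subunits were above BEAS-2B cells and 5 by the FC rule, COX6B1 (1.54), COX6C (1.53), COX5A (1.45), COX7B (1.36) and NDUFA4 (1.14). NDUFB3 (2.60), NDUFA1 (1.84) and UQCRFS1 (1.79) had the largest differences outside complex IV. The untreated A549 library also serves as the control of both A549 comparisons.

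Base composition moved with the changes. The GC content of the annotated transcripts correlated with the log2 FC of the subunits at 5 ng/mL in A549 cells with a Spearman correlation of 0.439 over 76 subunits, and of 0.321 over 7049 entries. In BEAS-2B cells the values were 0.277 over 74 subunits and 0.0825 over 6687 entries. In A549 cells, 11 of the 26 subunits with at most 45.9% GC and 2 of the 25 above 53.1% were downregulated, against 21.2% and 12% of all entries in the same ranges. With the trend over GC content removed, 19 of the 21 subunits called in A549 and 8 of the 9 called in BEAS-2B cells at 5 ng/mL were still called.

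Genes that work with the chain were followed in lists of named genes, again against the 17.1% lower and 16.1% higher calls in A549 and the 11.6% and 7.33% in BEAS-2B cells. Of 50 entries for assembly factors, 32 passed the minimum in A549 cells at 5 ng/mL, with 7 downregulated and 1 upregulated, and 25 in BEAS-2B cells, with 2 downregulated. COX17, which delivers copper to complex IV, had 1337, 512 and 202 raw counts in A549 cells and 666, 158 and 87 in BEAS-2B cells, at -3.07 (-3.30 to -2.86) and -2.75 (-3.10 to -2.44). COA1 was at -2.92 (-3.39 to -2.52) and -1.35 (-1.87 to -0.89), and COA6, another copper factor, was at -3.42 (-4.11 to -2.90) in A549 cells and below the minimum in BEAS-2B cells. COA1, COA5, COA6 and TMEM70 in A549 cells, and the 2 factors downregulated in BEAS-2B cells, passed the minimum only in the untreated library. Their calls at 5 ng/mL could hardly go in another direction. SURF1 was the upregulated factor in A549 cells, at 1.22 (0.89 to 1.57), and SCO1 was upregulated in BEAS-2B cells at 1 ng/mL, at 1.28 (0.88 to 1.70). Complex II assembly factor SDHAF2, which attaches the flavin to SDHA, was at 0.72 (0.43 to 1.02) and 0.99 (0.67 to 1.33) without reaching the limit.

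Of 15 TCA cycle and pyruvate dehydrogenase genes that passed the minimum in A549 cells, 6 were downregulated at 5 ng/mL and 0 upregulated, and of 14 in BEAS-2B cells, 3 and 0. Fumarase (FH), which acts directly after complex II in the cycle, had 353, 207 and 54 raw counts in A549 cells and 153, 69 and 37 in BEAS-2B cells, at -3.04 (-3.50 to -2.65) and -1.85 (-2.43 to -1.35). PDHB, a subunit of pyruvate dehydrogenase, was at -2.0 (-2.36 to -1.68) and -1.28 (-1.68 to -0.90). FH, PDHB and DLAT in A549 cells, and the 3 downregulated genes in BEAS-2B cells, passed the minimum only in the untreated library. Their calls could hardly go in another direction. SUCLG2 was at -1.51 in A549 cells, while SUCLG1, whose product pairs with it in succinyl-CoA ligase, was at 0.98 (0.87 to 1.08).

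The adenine nucleotide carriers, which exchange ATP for ADP across the inner membrane, differed in direction. SLC25A5 had 2333, 1006 and 473 raw counts in A549 cells and 681, 333 and 232 in BEAS-2B cells, at -2.65 (-2.80 to -2.51) and -1.38 (-1.60 to -1.16). SLC25A6 has 2 entries in the tables, which were at 0.97 and 1.14 in A549 and 0.54 and 0.71 in BEAS-2B cells, of which 1 was upregulated in A549 cells. VDAC1, a pore of the outer membrane, was downregulated in A549 cells (-1.32, -1.47 to -1.17) and was at -0.25 (-0.42 to -0.09) in BEAS-2B cells. The phosphate carrier SLC25A3 was downregulated in BEAS-2B cells (-1.17, -1.32 to -1.02) and just short of the limit in A549 cells (-0.97, -1.08 to -0.86). Of the 8 entries for carriers and channels, 7 passed the minimum in each line at 5 ng/mL. In A549 cells 2 were downregulated and 1 upregulated, and in BEAS-2B cells 2 and 0.

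Of 14 regulators of mitochondrial biogenesis, 8 passed the minimum in A549 cells at 5 ng/mL, with 1 downregulated and 0 upregulated. Their median log2 FC was 0.04. In BEAS-2B cells 7 passed it, with 2 downregulated, 0 upregulated and a median of -0.08. TFAM, which packages mitochondrial DNA and activates its transcription, was downregulated at 5 ng/mL in both lines. It had 487, 462 and 260 raw counts in A549 cells and 431, 205 and 168 in BEAS-2B cells, at -1.25 (-1.48 to -1.04) and -1.18 (-1.45 to -0.92). TFB1M was downregulated in BEAS-2B cells (-1.11, -1.46 to -0.78). NRF1 stayed below the minimum, with 41, 114 and 99 counts in A549 and 75, 81 and 84 in BEAS-2B cells, and so did the coactivator gene PPARGC1A, with 73, 35 and 20 in A549 and 4, 0 and 0 in BEAS-2B cells. Of 9 entries for chain proteins outside the naming rule, 7 passed the minimum in each line at 5 ng/mL. In A549 cells 2 were downregulated and 0 upregulated, and in BEAS-2B cells 0 were called. Cytochrome c (CYCS) was at -1.25 (-1.42 to -1.09) in A549 and -0.14 (-0.33 to 0.06) in BEAS-2B cells. The ATP synthase subunit USMG5 was at -1.03 (-1.20 to -0.87) and -0.41 (-0.68 to -0.15). C14orf2, the highest of the list in both lines, was at 0.85 (0.76 to 0.94) and 0.65 (0.52 to 0.79). The median of the list was -0.44 in A549 and -0.10 in BEAS-2B cells.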

How the data were processed

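RNA was extracted with Trizol and 500 ng of total RNA went into each QuantSeq 3′ library. The authors deposited 1 table of read counts per sample, as whole-number counts per gene entry. The submitters' processing notes name Bowtie2, bedtools and the human build hg19, and how reads with several matches were treated is not given in the sources used here. Neither trimming nor strand handling could be checked from the counts.

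The 6 tables were joined by entry, and counts were scaled with TMM factors (edgeR 4.0.16, R 4.3.3). The ND minimum of 7 and the FC of at least 2 follow the study's methods, and the pseudocount of 1 was set here. With 1 library per condition no test was possible, and the 95% intervals are exact for the counting error of a ratio of counts (scipy 1.17.1). They do not cover differences between cultures or amplified copies of one molecule. The median distance from a subunit's log2 FC to the end of its interval was 0.13 to 0.19 over the comparisons with untreated cells. Fold changes and intervals were tested on simulated data. GC content came from GENCODE transcripts, and promoters from the RefSeq table of GRCh38.p14, of which no other coordinate was used.

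The members, the gene lists and the roles given to subunits were chosen with earlier results of these data known. The rule for named genes took, in each complex and line, the 2 subunits with the highest and the 2 with the lowest log2 FC at 5 ng/mL, every subunit called against untreated cells, subunits at least 1.5-fold in opposite directions in the lines (0 were found), the SDH genes and the isoforms, and from the lists of other genes up to 4 called genes in each direction with NRF1, PPARGC1A and TFAM. Some single genes are not reported or plotted by name here. Further members of a complex or list were named to complete its description, with their values known. Alternatives were scaling by total counts, by upper quartiles, by the median-of-ratios factors of DESeq2 1.42.0 and by TMM within each line, cyclic loess (limma 3.58.1), removal of the trend over GC content in 20 bins, a filter of at least 10 counts, pseudocounts of 0.1 and 5, thinning to the smallest library, addition of pseudogene counts, ND minimums of 6 and 8, and an FC of 1.5.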

Additional observations from a re-analysis of the deposited data

Results flagged for a closer look

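Of the 73 subunits that passed the ND minimum in all comparisons with untreated cells, 3 had log2 FCs beyond their counting intervals that were below 0 at both doses in A549 cells and above 0 at both doses in BEAS-2B cells. How many of all entries meet this rule was not counted, so 3 cannot be called many or few. At 5 ng/mL, 81.1% of the subunits and 73.4% of all entries had the same sign in both lines. With 1 library per condition, the difference between the lines was not tested. The hinge subunit UQCRH was at -0.37 (1 ng/mL) and -0.22 (5 ng/mL) in A549 cells, and at 0.44 and 0.21 in BEAS-2B cells. Its A549 value at 5 ng/mL was 0.03 with the GC trend removed, and its reads may be shared with UQCRHL. The complex IV subunit COX7A2 was at -0.74 and -0.66 in A549 cells and at 0.38 and 0.16 in BEAS-2B cells, and its value at 5 ng/mL kept its sign under every alternative, between -0.90 and -0.34 in A549 and between 0.03 and 0.29 in BEAS-2B cells. The complex I accessory subunit NDUFB9 was at -0.57 and -0.32 in A549 cells and at 0.49 and 0.45 in BEAS-2B cells. None of the 12 values reached an FC of 2.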

How the results depend on the processing

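No paired analysis was possible because the labels carry no replicate numbers and each condition had 1 library. For the same reason no library could be left out. With an FC limit of 1.5, the calls went from 12 to 26 (A549, 1 ng/mL), from 21 to 34 (A549, 5 ng/mL), from 4 to 18 (BEAS-2B, 1 ng/mL) and from 9 to 26 (BEAS-2B, 5 ng/mL), since a lower limit takes in more subunits. Scaling by total counts gave 14 calls in BEAS-2B cells at 5 ng/mL, all lower. In A549 cells the median log2 FC was -0.29 with total counts and -0.28 with cyclic loess at 1 ng/mL, and -0.49 and -0.44 at 5 ng/mL. Total counts moved the median of all entries as well, in A549 cells from 0.09 to -0.10 (1 ng/mL) and from 0.11 to -0.14 (5 ng/mL), and in BEAS-2B cells from 0.01 and 0.03 to -0.12 at both doses. Relative to all entries, the subunits' median at 5 ng/mL in A549 cells lay between -0.50 and -0.35 under each scaling. The median in BEAS-2B cells at 1 ng/mL turned from 0.04 to -0.08 with total counts and to -0.01 with cyclic loess. The causes of these shifts were not tested. Depth limits SDHD, ATP5D and the tissue-restricted isoforms, whose few counts leave wide intervals.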
